A study of Mus musculus with 41 samples.

Results

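The Hox genes are described here, taken as every gene whose symbol in the RNA abundance values is Hoxa, Hoxb, Hoxc or Hoxd followed by a number. They were 39 genes of the 22438 with footprint values and of the 55385 with RNA values: 11 in the Hoxa cluster on chromosome 6, 10 in the Hoxb cluster on chromosome 11, 9 in the Hoxc cluster on chromosome 15 and 9 in the Hoxd cluster on chromosome 2. The study asked what loss of HBS1L and PELO, partner proteins that release stalled ribosomes from mRNA, and of UPF2, a factor of nonsense-mediated mRNA decay, does to translation and to RNA in the mouse. Ribosome profiling, which sequences the stretches of mRNA covered by ribosomes (footprints), was done on embryos, cerebella and mouse embryonic fibroblasts (MEFs), and RNA sequencing on MEFs alone.

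Embryos were C57BL/6NJ at embryonic day 8.5, either Hbs1l -/- or wild type, with 3 replicates a genotype and 5 embryos pooled in each. Cerebella were C57BL/6J at postnatal day 14, either Atoh-Cre;Hbs1l cKO or Atoh-Cre;Hbs1l +/+, with 3 replicates of 1 cerebellum each. This Cre acts in granule cells, and the study's strain list gives the cKO animals as Hbs1l fl/-, so their other cells kept the gene on the floxed allele alone, while the controls were +/+. MEFs were C57BL/6 and all carried the inducible CAG-Cre ER transgene and were treated with tamoxifen: they were Hbs1l cKO, Pelo cKO, Upf2 cKO or, as controls, CAG-Cre ER alone. Per the study's methods, MEFs were taken from embryos older than those profiled here and were cultured before collection. Each MEF replicate came from 1 embryo, with separate dishes for footprints and for RNA. The study's strain list gives Hbs1l cKO MEFs as Hbs1l fl/-, and Pelo cKO and Upf2 cKO MEFs as fl/fl for their gene. It gives the MEF groups, controls included, and the cerebellum cKO animals as homozygous for n-Tr20 B6J, a mutation in an arginine tRNA gene. The cerebellum controls and the embryos are not listed there. Footprints of each MEF mutant had 3 libraries and were compared with 3 control libraries of the same sequencing pool, and RNA had 3 control, 3 Hbs1l cKO, 2 Pelo cKO and 3 Upf2 cKO libraries.

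Hox genes encode transcription factors that bind DNA through a homeodomain and give cells their position along the head-to-tail axis and along the limb. Their order in each cluster follows the order in which they are switched on in time and in space, so that paralog groups with low numbers, at the 3′ end, mark the hindbrain and neck and those with high numbers, at the 5′ end, mark the lower trunk, tail, limb tips and genital tubercle. Fibroblasts keep much of the Hox pattern of the place they came from, while the cerebellum arises in front of the Hox domain.

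The homeobox, the part of the gene that encodes the homeodomain, is shown for a pair of genes whose footprints rose in mutant MEFs, Hoxd13 and Hoxa13, and a pair whose footprints fell, Hoxa5 and Hoxc6, from the Gencode M21 transcripts on GRCm38. It was found in all 39 genes, within 1 exon in each. Capitals mark 18 bases, the 6 codons for a stretch of the recognition helix that HOX proteins share.
Hoxd13: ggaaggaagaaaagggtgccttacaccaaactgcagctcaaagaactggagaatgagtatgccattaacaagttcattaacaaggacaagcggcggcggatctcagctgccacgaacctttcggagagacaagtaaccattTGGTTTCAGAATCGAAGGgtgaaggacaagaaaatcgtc
Hoxa13: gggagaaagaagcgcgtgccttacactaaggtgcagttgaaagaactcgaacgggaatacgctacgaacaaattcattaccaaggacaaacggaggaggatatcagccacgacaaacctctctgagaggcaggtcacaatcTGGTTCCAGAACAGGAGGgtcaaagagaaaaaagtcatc
Hoxa5: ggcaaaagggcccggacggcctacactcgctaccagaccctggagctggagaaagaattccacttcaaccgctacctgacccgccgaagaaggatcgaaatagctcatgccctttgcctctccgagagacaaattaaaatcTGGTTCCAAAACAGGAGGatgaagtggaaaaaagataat
Hoxc6: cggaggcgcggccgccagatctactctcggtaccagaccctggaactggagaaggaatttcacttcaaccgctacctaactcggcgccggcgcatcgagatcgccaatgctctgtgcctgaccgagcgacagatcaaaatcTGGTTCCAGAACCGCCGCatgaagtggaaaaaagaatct
They are coding exon sequence, at chr2:74669930-74670109 (plus strand, exon 2), chr6:52258928-52259107 (minus strand, exon 5), chr6:52202632-52202811 (minus strand, exon 2) and chr15:103010754-103010933 (plus strand, exon 2). Over their 180 bases the homeoboxes of Hoxa13 and Hoxd13 were 73.9% identical, while Hoxa5 and Hoxd13 were 51.1% identical. Over all pairs, genes of the same paralog group had 67.2 to 93.9% of bases in common (median 80.6%, 42 pairs) and other pairs 46.1 to 88.9% (median 60.6%, 699 pairs). Such likeness can let a short footprint match more than 1 gene. In 23 of the 39 genes the coding sequence held at least 1 window of 28 bases that another Hox gene also had, but these made up at most 5.08% of windows, in Hoxa6. Hoxd4 shares 57.6% of its coding bases with the overlapping gene model Gm28230 on the same strand and Hoxa2 shares 6.54% with Gm28308, so counts of these 2 genes are uncertain. Exon bases were shared with another gene by 16 Hox genes, for 10 of them with a gene on the opposite strand such as Hoxa11os, and whether counting used strand was not given in the sources used here.

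Promoters were read from RefSeq (GRCm38.p6, from 250 bases before to 50 after a transcript's start), which gave 24 promoters for 22 of the genes. They are shown for a pair of genes whose footprints rose in mutant MEFs, Hoxd13 and Hoxa13, and a pair whose footprints fell, Hoxa5 and Hoxb4, with each CG dinucleotide in capitals.
Hoxd13: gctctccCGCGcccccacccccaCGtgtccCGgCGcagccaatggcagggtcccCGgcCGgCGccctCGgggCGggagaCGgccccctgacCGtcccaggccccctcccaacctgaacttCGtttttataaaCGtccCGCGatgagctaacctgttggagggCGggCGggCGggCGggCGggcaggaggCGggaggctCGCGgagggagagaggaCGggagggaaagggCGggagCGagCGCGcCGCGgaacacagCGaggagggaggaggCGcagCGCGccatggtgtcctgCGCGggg
Hoxa13: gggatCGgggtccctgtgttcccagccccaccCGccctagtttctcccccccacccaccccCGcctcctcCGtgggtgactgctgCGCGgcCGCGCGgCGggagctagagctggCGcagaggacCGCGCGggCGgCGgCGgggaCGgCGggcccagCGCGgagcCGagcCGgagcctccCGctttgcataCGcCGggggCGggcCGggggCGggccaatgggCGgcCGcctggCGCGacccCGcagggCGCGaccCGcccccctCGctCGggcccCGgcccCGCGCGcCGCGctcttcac
Hoxa5: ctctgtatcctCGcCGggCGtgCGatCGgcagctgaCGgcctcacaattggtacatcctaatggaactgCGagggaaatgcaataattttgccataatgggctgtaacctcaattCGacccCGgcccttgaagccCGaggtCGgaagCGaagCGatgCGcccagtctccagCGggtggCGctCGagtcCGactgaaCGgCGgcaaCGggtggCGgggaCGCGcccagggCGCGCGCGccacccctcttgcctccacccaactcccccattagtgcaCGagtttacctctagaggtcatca
Hoxb4: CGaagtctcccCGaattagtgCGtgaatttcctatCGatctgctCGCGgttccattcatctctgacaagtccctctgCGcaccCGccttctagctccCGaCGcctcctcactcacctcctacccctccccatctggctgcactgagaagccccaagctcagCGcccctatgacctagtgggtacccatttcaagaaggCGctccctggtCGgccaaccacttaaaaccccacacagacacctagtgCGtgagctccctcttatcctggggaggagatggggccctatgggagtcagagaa
They lie at chr2:74667975-74668274 (plus strand), chr6:52260831-52261130 (minus), chr6:52204538-52204837 (minus) and chr11:96318017-96318316 (plus). The Hoxa13 promoter held 45 CG dinucleotides, that of Hoxd13 37, Hoxa5 29 and Hoxb4 14. Over the 24 Hox promoters the median was 14.5, against 7 over all 32851 promoters of this length. The core motif of the retinoic acid receptor, AGGTCA, was in 29.2% of Hox promoters and in 16.3% of all promoters. It occurred in those of Hoxa5, Hoxb4, Hoxc4, Hoxd3, Hoxd4, Hoxd8 and Hoxd10, among which Hoxd8 rose and Hoxa5 and Hoxb4 fell in Pelo cKO footprints. Motifs were searched on both strands, and a match is a description of the letters only. The PBX-HOX motif TGATNNAT was in 16.7% against 8.85%, the CDX motif TTTATNG in 8.33% against 10.9%, and TATAAA, which can overlap the CDX motif and was present in the Hoxd13 promoter, in 16.7% against 13.6%.

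Footprint libraries held 2634480 to 7298812 counts in embryos, 10919139 to 22591768 in cerebella and 5782990 to 25607974 in MEFs, and RNA libraries 22713643 to 86425762 estimated counts. Levels are given as counts for each 1000000 in a library (CPM), as CPM per kilobase of coding sequence where genes are compared (density), and as TPM for RNA. The targeted gene was lower in the mutant libraries for Hbs1l (log2 fold change of footprints -3.60 ± 0.35 in embryos, -1.50 ± 0.13 in cerebella and -4.15 ± 0.18 in MEFs) and Pelo (-3.78 ± 0.16), whereas Upf2 was higher in the libraries labelled Upf2, by 1.09 ± 0.08 on the log2 scale in footprints and 1.33 ± 0.24 in RNA. These counts cover the whole gene, including exons outside any deleted part, and do not check the deletion, so these libraries are called by their label throughout. Control MEF libraries with the same replicate number in the 3 pools differed by close to sampling noise (chi-square per degree of freedom 1.10 to 1.19 over 9 pairs, against 4.06 to 12.6 between different numbers in a pool), so they are counted as the same 3 control cultures and the 3 footprint comparisons share their controls, as the 3 RNA comparisons share 3 control libraries. The labels do not say whether pooled embryos came from separate litters, and p-values measure the spread between these samples.

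In wild-type embryos, footprints fell on 35 of the 39 Hox genes, and on 32 of them in every library. Among the densest were Hoxb9, a thoracic gene (61.8 ± 12 CPM per kb, SD, n = 3), Hoxc8, also thoracic (42.6 ± 9.80), Hoxb6 (41.3 ± 7.38) and Hoxb1, which specifies the hindbrain segment of the facial nerve (41.1 ± 4.84). Neighbours in this order from Hoxc8 to Hoxb1 differed by less than the larger of their SDs. Hoxb13, Hoxc12, Hoxc13 and Hoxd12, from the 5′ end, had no footprint in 9635177 counts. Intervals and floors given for counts cover counting error only. Genes of paralog groups 1 to 4 took 42.6 to 46.5% of all Hox footprints in the 3 wild-type libraries, groups 5 to 8 29.8 to 32.4%, and groups 9 to 13 22.4 to 25%.

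In control MEFs the weight lay further toward the 5′ end. Hoxc6, a gene of the forelimb and thorax, was the densest (50.9 ± 4.71 CPM per kb, n = 3, libraries of the Hbs1l pool), followed by Hoxa5, which acts in the lung and the cervical skeleton (33.7 ± 8.56), Hoxb9 (28.5 ± 2.27), Hoxb4 (26.0 ± 5.03) and Hoxa7 (19.6 ± 4.72). Of these, neighbours from Hoxa5 to Hoxb4 differed by less than the larger of their SDs. Groups 5 to 8 took 45.5 to 46.3% of Hox footprints and groups 9 to 13 31.7 to 32.4%. Hoxb1 and Hoxb13 had no footprint, although Hoxb1 RNA was listed at 4.37, 0.402 and 0.239 TPM in the 3 control RNA libraries.

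**Figure D1:**
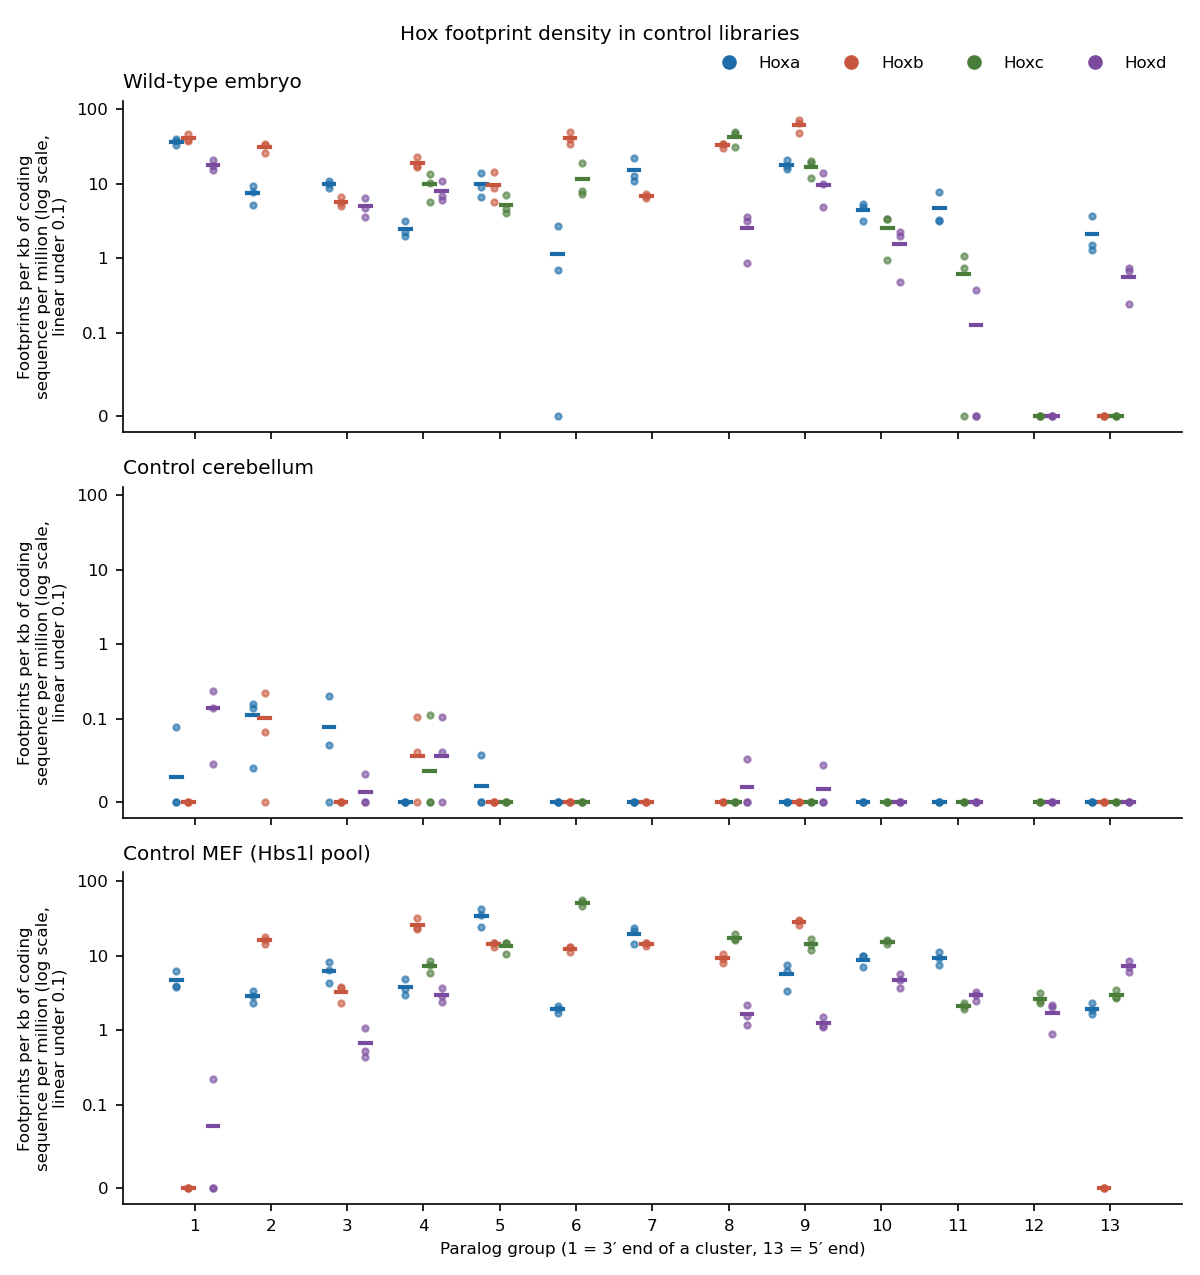
Footprint density of each Hox gene (CPM per kb of coding sequence, log scale with a linear part under 0.1) by paralog group in wild-type embryos, control cerebella and control MEFs; points are the 3 libraries, bars their mean, colours the 4 clusters. Embryo density falls off after paralog group 9, MEF density reaches to group 13, and the cerebellum stays under 1 throughout.

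In the comparison of control MEFs with wild-type embryos, 30 of the 37 Hox genes tested differed, 17 higher and 13 lower in MEFs, beside 77.6% of all 12616 genes tested (edgeR's quasi-likelihood test, called at an adjusted p of at most 0.05 after Benjamini-Hochberg adjustment over all genes). In bulk samples of this kind fewer cells of a type and less RNA in each cell cannot be told apart. A gene that passed the low-count filter only where it is high had to differ here. Tissue, embryonic age, culture and sequencing pool are the same split and cannot be told apart. In paralog groups 1 to 4, 7 were lower and 2 higher in MEFs, in groups 5 to 8, 3 were lower and 6 higher, and in groups 9 to 13, 3 were lower and 9 higher. Of these, 5 genes had at most 3 counts in 1 of the tissues, Hoxb1 and Hoxd1 in MEFs and Hoxc12, Hoxc13 and Hoxd11 in embryos. Without them 5 were lower and 2 higher in groups 1 to 4, and 3 lower and 6 higher in groups 9 to 13, and nothing is read from these counts.

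At the 3′ end Hoxb1 had 33.8, 41.6 and 34.4 CPM in the embryo libraries and 0 in each MEF library, at least 453-fold higher in embryos against a floor of 3 counts over the MEF group. Hoxd1, which acts in pain-sensing neurons, had 14.8, 20.7 and 17.0 CPM in embryos and 0, 0.22 and 0 in MEFs, a ratio of 218 (exact 95% interval for counting error 73.5 to 1069). Neither gene overlapped between the tissues. In the middle of the clusters Hoxa5 was higher in MEFs by 2.26 ± 0.25 on the log2 scale (adjusted p = 1.8e-07), Hoxc6 by 2.68 ± 0.23 (7.4e-09) and Hoxc5 by 1.79 ± 0.29 (2e-05). Hoxa5 went from 5.31, 7.38 and 11.2 CPM in embryos to 28.5, 33.6 and 19.8 in MEFs, and Hoxc6 from 5.69, 5.16 and 13.3 to 36.3, 39 and 32.4, without overlap. At the 5′ end Hoxc10, a gene of the lumbar spine and hindlimb, was higher by 3.18 ± 0.30 (2.2e-08), from 3.42, 0.983 and 3.41 CPM to 16.0, 16.6 and 14.5. Hoxc13, a gene of hair and nails, had no footprint in embryos and 3.44, 2.64 and 2.76 CPM in MEFs, at least 9.42-fold higher. Hoxd9 was lower in MEFs (-2.44 ± 0.36, adjusted p = 7.5e-06), with 4.93, 10.1 and 14.3 CPM in embryos and 1.12, 1.54 and 1.16 in MEFs.

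Control cerebella held 39 Hox footprints in 57387601 counts, on 12 of the 39 genes, and 2 genes had a footprint in all 3 libraries. The densest were Hoxd1 (0.14 ± 0.10 CPM per kb, n = 3), Hoxa2 (0.11 ± 0.06), Hoxb2 (0.10 ± 0.11) and Hoxa3 (0.090 ± 0.10), all at levels where libraries differ by a few counts, and then Hoxb4 and Hoxd4 at 0.055 ± 0.052 each. All 28 Hox genes tested were higher in wild-type embryos than in control cerebella, beside 80.2% of genes called in either direction. They passed the filter through the embryo libraries, so they had to differ.

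Hox footprints of Hbs1l -/- embryos did not pass the test for any gene. Of 26 Hox genes tested, 0 were called by edgeR's quasi-likelihood test, 2 had an unadjusted p under 0.05, and DESeq2 called 0, beside 1.87% of all genes called. The median log2 fold change of the 26 was -0.46 (median of all genes 0.01), with 22 below 0. The mutant libraries were uneven. Summed over all 39 genes, the Hbs1l -/- libraries held 449, 230 and 316 CPM, against 380, 440 and 450 in wild type, so replicate 1 of the mutant lay with the controls and the other two lay below. Hoxb9 had 47.1 CPM in that replicate and 18.1 and 19.5 in the others, against 36.4, 54.1 and 48.4 in wild type. Hoxc9 had 13.6, 1.61 and 2.48 CPM against 15.6, 9.34 and 14.7. Leaving out replicate 1, the mutant library with the highest Hox sum, itself lowers the mutant values of Hox genes. Without it 8 of 26 Hox genes were called, all lower, beside 20.3% of all genes called and 10.6% called lower in that fit: Hoxc9 (-2.66 ± 0.46), Hoxb3 (-1.53 ± 0.48), Hoxa7 (-1.32 ± 0.40), Hoxb9 (-1.27 ± 0.22), Hoxa3 (-1.22 ± 0.40), Hoxb6 (-0.99 ± 0.25), Hoxd1 (-0.93 ± 0.29) and Hoxb2 (-0.68 ± 0.22). Markers of the tail bud and presomitic mesoderm, 22 genes of the embryo's growing tail end, summed to 1104 CPM in replicate 1 and to 568 and 638 in the others, against 721 to 832 in wild type. Of 13 extraembryonic genes tested, 4 were higher and 2 lower in the mutant, with Prl2c2, a placental prolactin, higher in the mutant by 6.54 ± 0.84 on the log2 scale (adjusted p = 0.0016). The part of these markers in the Hox values was not tested.

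The effect of Hbs1l loss on footprints was also compared between embryos and MEFs, as a tissue-by-genotype term. This difference passed for 1 of 37 Hox genes, beside 7.46% of all genes. The count was 0 without wild-type embryo replicate 2, without Hbs1l cKO MEF replicate 1 and without control MEF replicate 2, and 3 of 36 without Hbs1l -/- embryo replicate 1, beside 20.9% of all genes called in that fit.

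In cerebella with Hbs1l deleted from granule cells, no Hox gene reached the low-count filter. With that filter 0 were therefore tested or called by edgeR or DESeq2, beside 0.0624% of all genes. The libraries differed all the same. Summed Hox footprints were 10, 13 and 16 counts in the control cerebella (0.588 to 0.783 CPM) and 74, 8 and 218 counts in the cKO cerebella. This is 3.54 CPM in cKO replicate 1 (exact 95% interval for counting error 2.78 to 4.45), 0.733 CPM in replicate 2 (0.316 to 1.44) and 9.65 CPM in replicate 3 (8.41 to 11). In this sum replicates 1 and 3 stood above the controls and replicate 2 among them. By paralog group, replicate 2 had 0.366 CPM in groups 1 to 4, against 0.497 to 0.783 in controls. In groups 5 to 8 it also had 0.366 CPM, from 4 counts, against 0 to 0.0452.

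The genes that carried these counts came from the 3′ and middle parts of the clusters. Hoxc4, which marks the lower hindbrain and neck cord, had 12, 1 and 48 counts in the cKO libraries and 0, 2 and 0 in the controls. Hoxd3 had 6, 0 and 37 against 0, 1 and 0, and Hoxb3, a gene of the lower hindbrain, 5, 0 and 23 against 0 in each. Hoxa5 had 8, 1 and 21 against 0, 1 and 0, and Hoxb5 had 12, 2 and 10 against 0 in each. Genes of paralog groups 9 to 13 had 0 counts in each cKO library, which by a floor of 3 counts allows up to 0.144, 0.275 and 0.133 CPM (upper ends of the exact 95% intervals 0.177, 0.338 and 0.163), and 1 count in all controls together. A list of 14 markers of brainstem and spinal neurons, such as Chat, moved with the Hox genes. It summed to 140 CPM in cKO replicate 1, 53.6 in replicate 2 and 251 in replicate 3, against 95.9, 78.4 and 49.6 in the controls, with 14, 11 and 14 of its 14 genes detected in the cKO libraries and 11 to 12 in the controls. Granule cell markers, 15 genes, summed to 5769, 7603 and 5357 CPM in the cKO libraries and to 6619 to 8447 in controls. The part of brainstem tissue in the Hox counts was not tested.

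**Figure D2:**
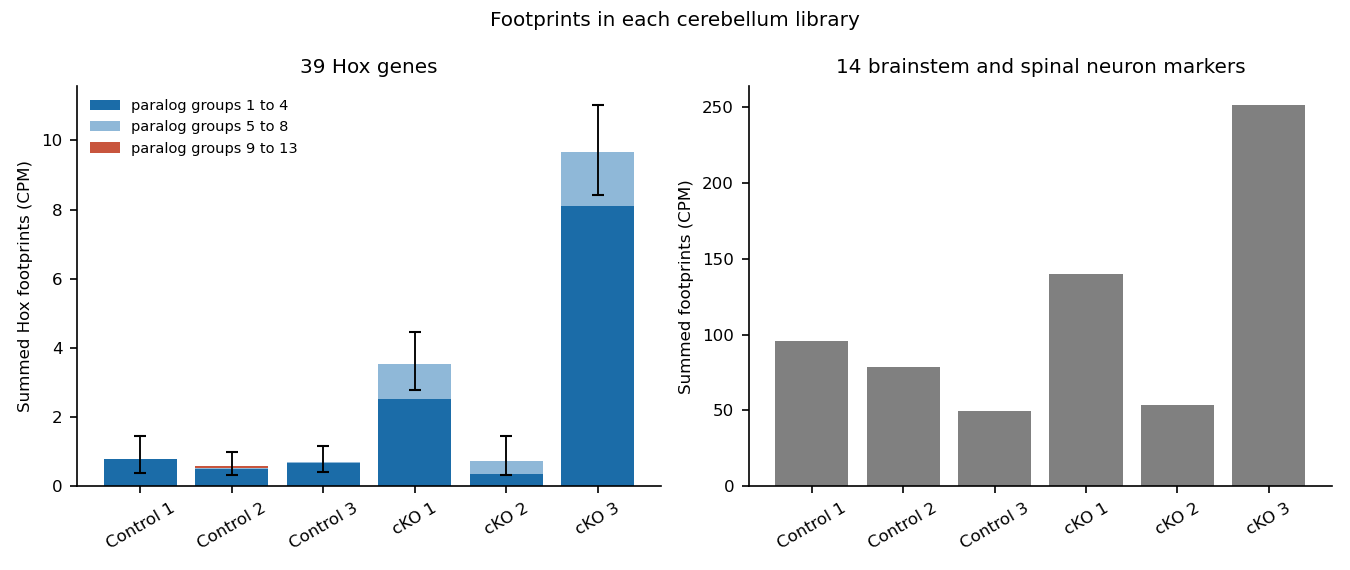
Summed footprints (CPM) of the 39 Hox genes, stacked by paralog groups with exact 95% counting intervals (left), and of 14 brainstem and spinal neuron markers (right), in each of the 6 cerebellum libraries. Atoh-Cre;Hbs1l cKO replicates 1 and 3 are the highest in both panels, at 3.54 and 9.65 CPM of Hox footprints.

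In MEFs without HBS1L, more Hox genes fell than rose in footprints. Of 35 Hox genes tested, 3 rose and 14 fell, beside 34.1% of all 11984 genes called (2081 higher and 2002 lower). Their median log2 fold change was -0.47 (all genes -0.01). In paralog groups 1 to 4, 4 of 9 tested fell, in groups 5 to 8, 8 of 11 fell, and in groups 9 to 13, 3 rose and 2 fell of 15. Summed over all members, the controls held 321, 346 and 266 CPM and the Hbs1l cKO libraries 249, 220 and 240, and the share of groups 9 to 13 was 31.7 to 32.4% in the controls and 44.4 to 46.5% in the mutants.

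From the 3′ end on, Hoxb2, a hindbrain gene, had 18.8, 17.3 and 15.2 CPM in controls and 10.3, 8.27 and 10.7 in the mutants (-0.81 ± 0.14, adjusted p = 0.00064). Hoxb4, known for its effect on blood stem cells, had 17.8, 23.8 and 16.8 against 10.5, 12.3 and 8.71 (-0.95 ± 0.17, 0.00073). The mutant libraries of both genes lay below every control. Hoxa5 fell from 28.5, 33.6 and 19.8 CPM to 16.1, 12.2 and 11.5 (-1.05 ± 0.19, adjusted p = 0.00073). Hoxb5, its paralog, fell from 11.9, 12 and 10.5 to 4.95, 5.74 and 6.13 (-1.07 ± 0.16, 0.00021), and Hoxc5 from 9.89, 9.77 and 6.94 to 6.69, 5.74 and 4.44 (-0.68 ± 0.21, 0.02). Hoxc6, the densest Hox gene of control MEFs, fell from 36.3, 39 and 32.4 to 21.6, 17.2 and 22.5 (-0.82 ± 0.12, 0.00016). For these genes too no mutant library reached a control library. Hoxb8, which acts in microglia and the spinal cord, fell from 6.62, 7.71 and 5.78 CPM to 3.42, 3.21 and 5.60 (-0.73 ± 0.24, 0.028), and Hoxc8 from 14.1, 12 and 11.8 to 11, 6.58 and 7.64 (-0.56 ± 0.18, 0.026), both without overlap. Hoxa7 had 20.5, 22.8 and 14 CPM against 14.7, 9.96 and 12.6 and Hoxb9 21.9, 22.8 and 19.5 against 13.4, 12.8 and 20.3, and in both a mutant library reached the controls (-0.62 ± 0.18 and -0.47 ± 0.16). The calls of Hoxb8 and Hoxa7 in footprints were lost under 5 and 4 of 12 other settings run. Hoxb7 (-0.63 ± 0.19) and Hoxd4 (-1.13 ± 0.33), whose counts are uncertain, also fell.

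Hoxd13, which shapes digits and is mutated in human synpolydactyly, went the other way. It had 7.14, 8.59 and 6.05 CPM in controls and 17.2, 16.4 and 19.7 in Hbs1l cKO MEFs, with no overlap (1.26 ± 0.16 on the log2 scale, adjusted p = 4.8e-05). Its paralog Hoxa13, a gene of the limb tips and genital tract, rose from 1.89, 2.64 and 2.14 to 5.37, 3.71 and 5.15 (1.09 ± 0.25, 0.0042), and Hoxc11 from 1.89, 1.76 and 2.14 to 3.90, 3.38 and 2.84 (0.79 ± 0.27, 0.034). Not every 5′ gene rose: Hoxd10 had 4.73, 5.73 and 3.74 CPM in controls and 3.55, 2.70 and 2.67 in mutants (-0.67 ± 0.25, 0.048).

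In RNA of Hbs1l cKO MEFs 3 of 37 Hox genes tested rose and 8 fell, beside 23.1% of all genes called (1944 higher and 1598 lower). The median of the Hox genes was -0.25 (all genes -0.01). Hoxd13 RNA was 2.88, 3.60 and 2.98 TPM in controls and 9.81, 7.77 and 9.12 in Hbs1l cKO MEFs (1.47 ± 0.14, adjusted p = 0.00064). Hoxa13 RNA rose from 0.560, 0.618 and 0.451 TPM to 0.895, 1.11 and 0.897 (0.80 ± 0.23, 0.036), and Hoxd8, chosen after its values were seen, from 1.09, 1.38 and 1.72 to 3.32, 2.65 and 2.71 (1.00 ± 0.18, 0.006). These 3 genes did not overlap between groups. Hoxa5 RNA was 12, 11 and 6.69 TPM in controls and 6.10, 5.37 and 5.70 in mutants (-0.83 ± 0.23, 0.031), and Hoxb5 RNA 4.86, 5.53 and 4.00 against 3.50, 3.06 and 3.38 (-0.58 ± 0.16, 0.029). Hoxa7 RNA fell from 12.1, 14.4 and 12 to 11.6, 9.30 and 9.16 (-0.39 ± 0.12, 0.049), Hoxb8 RNA from 5.05, 6.58 and 4.55 to 3.82, 4.23 and 4.27 (-0.47 ± 0.14, 0.04) and Hoxc8 RNA from 6.88, 8.90 and 7.69 to 5.67, 6.28 and 4.85 (-0.52 ± 0.13, 0.019). These were also lower in footprints, and in RNA none of them overlapped the controls. Hoxb3 (-0.46 ± 0.14, 0.043) and Hoxa3 (-0.89 ± 0.17, 0.0083) fell in RNA. Hoxc6 RNA was 19.3, 24.9 and 17.8 TPM against 19.6, 17.8 and 17.4 and did not pass (adjusted p = 0.18). The calls of Hoxa13, Hoxa5, Hoxa7, Hoxb3, Hoxb5 and Hoxb8 in RNA were each lost under 6 to 8 of the 11 or 12 other settings run, which include leaving out each library. Without 1 library the count of 11 fell to 7, 5 and 6 for Hbs1l cKO replicates 1, 2 and 3, and to 7 and 4 for control replicates 1 and 2. In footprints the count of 17 fell to 11 without Hbs1l cKO replicate 1 or 2, to 9 without control replicate 1 and to 10 without control replicate 2.

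Translational efficiency (TE) is the ratio of footprints to RNA, and its change was fitted as an assay-by-genotype term. In Hbs1l cKO MEFs 0 of 35 Hox genes differed in TE by edgeR's quasi-likelihood test, 5 had an unadjusted p under 0.05, and DESeq2 called 0, beside 0.0336% of all genes. The median was -0.22. The lowest value was that of Hoxd4 (-1.56 ± 0.35, adjusted p = 0.098), a gene that shares coding bases with Gm28230.

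**Figure D3:**
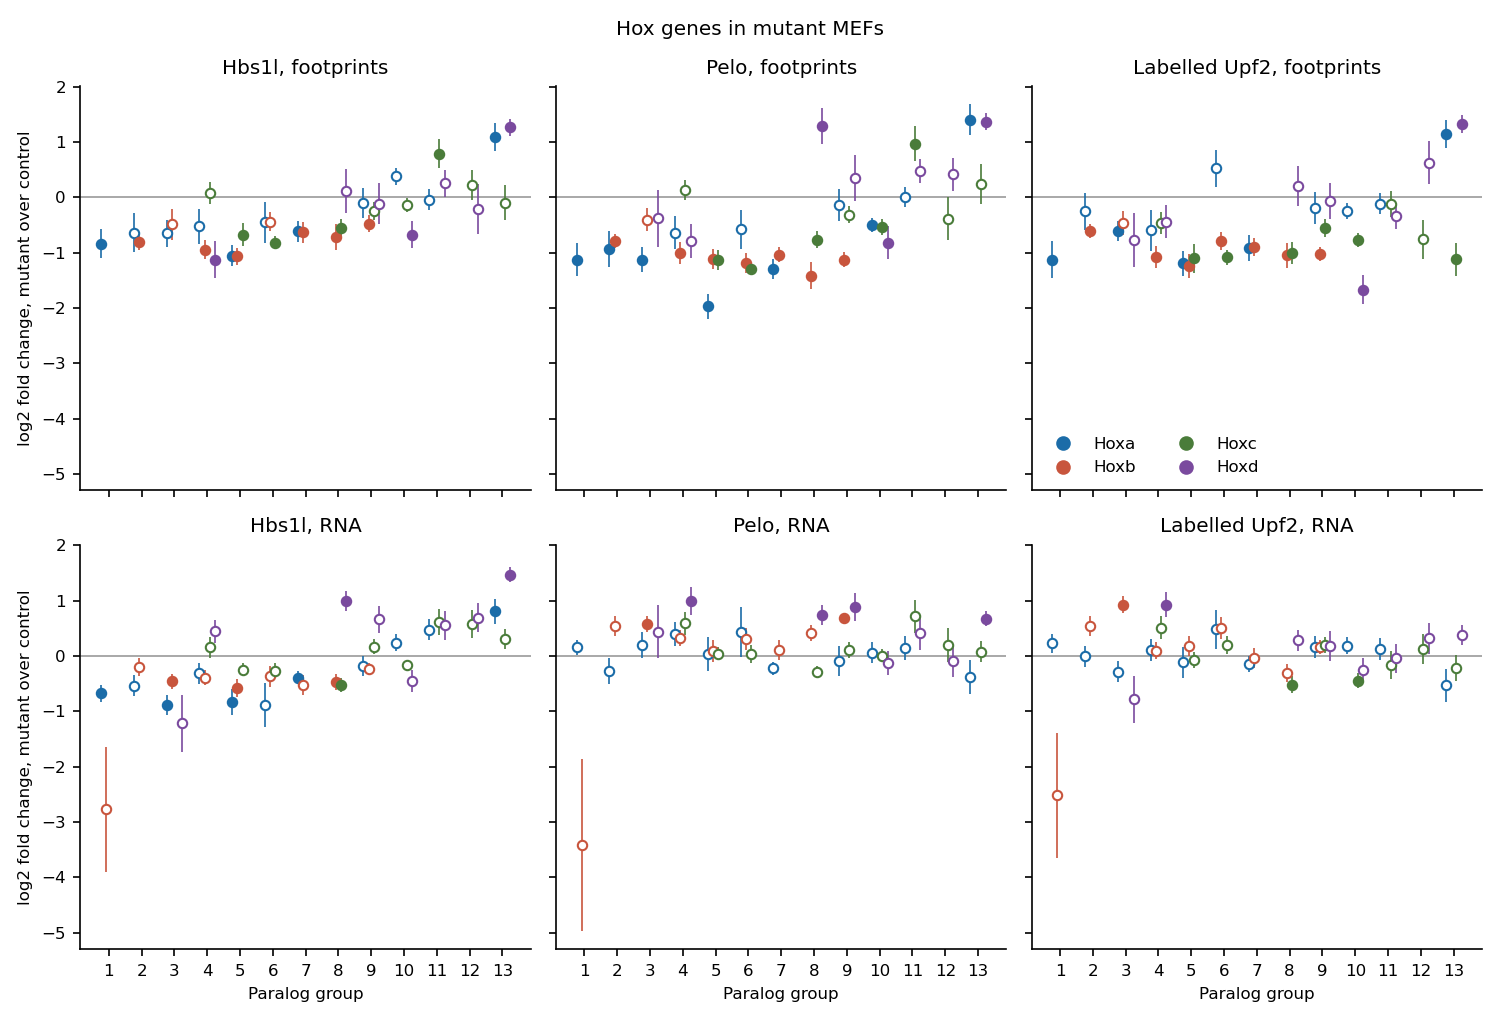
log2 fold change (over control, with standard error) of each Hox gene by paralog group in footprints (top) and RNA (bottom). MEFs are Hbs1l cKO, Pelo cKO or labelled Upf2, and filled points have an adjusted p of at most 0.05. In the footprint panels points of groups 5 to 8 lie mostly below 0 and Hoxa13 and Hoxd13 above 1, while most RNA points of Pelo and of the libraries labelled Upf2 lie near 0.

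In Pelo cKO MEFs the footprints of 22 of 36 Hox genes tested changed, 4 up and 18 down. Of all genes 44.1% were called, 2858 higher and 2644 lower. The median of the Hox genes was -0.61 (all genes 0.00). In groups 1 to 4, 5 of 10 fell, in groups 5 to 8, 9 of 11 fell and 1 rose, and in groups 9 to 13, 3 rose and 4 fell of 15. Summed Hox footprints were 323, 336 and 268 CPM in the controls of this pool and 199, 206 and 182 in the mutants. Hoxa5 had the largest change of any Hox gene in this comparison, from 27.9, 33.3 and 19.6 CPM to 7.36, 8.56 and 5.31 (-1.97 ± 0.23, adjusted p = 8.7e-05). Hoxc6 fell from 41.2, 38.0 and 31.6 to 15.0, 13.9 and 16.9 (-1.29 ± 0.12, 2.2e-05), Hoxa7, a thoracic gene, from 20.7, 21.9 and 15.6 to 7.48, 9.88 and 6.91 (-1.29 ± 0.18, 0.00029), and Hoxb9 from 23.2, 23.1 and 21.2 to 10.6, 12.2 and 8.83 (-1.12 ± 0.14, 0.00012). No mutant library of these 4 genes reached a control. Hoxb6 fell from 8.65, 9.51 and 8.18 to 3.33, 4.79 and 3.63 CPM (-1.19 ± 0.18), Hoxc5 from 9, 10.1 and 7.29 to 3.98, 4.43 and 3.83 (-1.14 ± 0.18) and Hoxa3, needed for the thymus and parathyroid, from 8.91, 9.98 and 5.95 to 3.92, 2.99 and 4.57 (-1.13 ± 0.23), each without overlap. Hoxd13 rose from 6.12, 7.31 and 6.93 CPM to 20.9, 15.0 and 17.5 (1.37 ± 0.15, 7.2e-05), and Hoxa13 from 2.27, 2.44 and 1.24 to 5.88, 5.99 and 4.33 (1.40 ± 0.27, 0.0023), again without overlap. Hoxd8 rose from 0.961, 0.943 and 1.24 to 2.26, 1.92 and 3.51 CPM (1.29 ± 0.32), and Hoxc11 was the other gene that rose (0.97 ± 0.32).

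Hox RNA in Pelo cKO MEFs came from 2 libraries, since the submitters left out 1 sample as an outlier. Of 37 genes tested 6 rose and 0 fell, with a median of 0.16 (all genes -0.01). The 16.2% called is below the 32.1% of all genes called, and nothing is read from this count. Hoxb9 RNA was 19.9, 23.9 and 23.3 TPM in controls and 39.5 and 37.3 in Pelo cKO (0.68 ± 0.08, adjusted p = 0.0016), while its footprints fell. Hoxd13 RNA rose from 2.88, 3.60 and 2.98 to 6.25 and 4.88 (0.67 ± 0.14, 0.011) and Hoxb3 from 3.98, 4.81 and 3.77 to 7.03 and 6.97 (0.58 ± 0.14, 0.021). Hoxd8, at 2.47 and 2.29 TPM against 1.09, 1.38 and 1.72 (0.74 ± 0.18), Hoxd4 (0.99 ± 0.25) and Hoxd9 (0.89 ± 0.25) were the rest. Hoxa5 RNA, at 9.49 and 12.7 TPM, overlapped the controls (0.03 ± 0.30, adjusted p = 0.94). The count of 6 fell to 3 without Pelo cKO replicate 1, to 2 without replicate 2 and to 3 without control replicate 3.

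**Figure D4:**
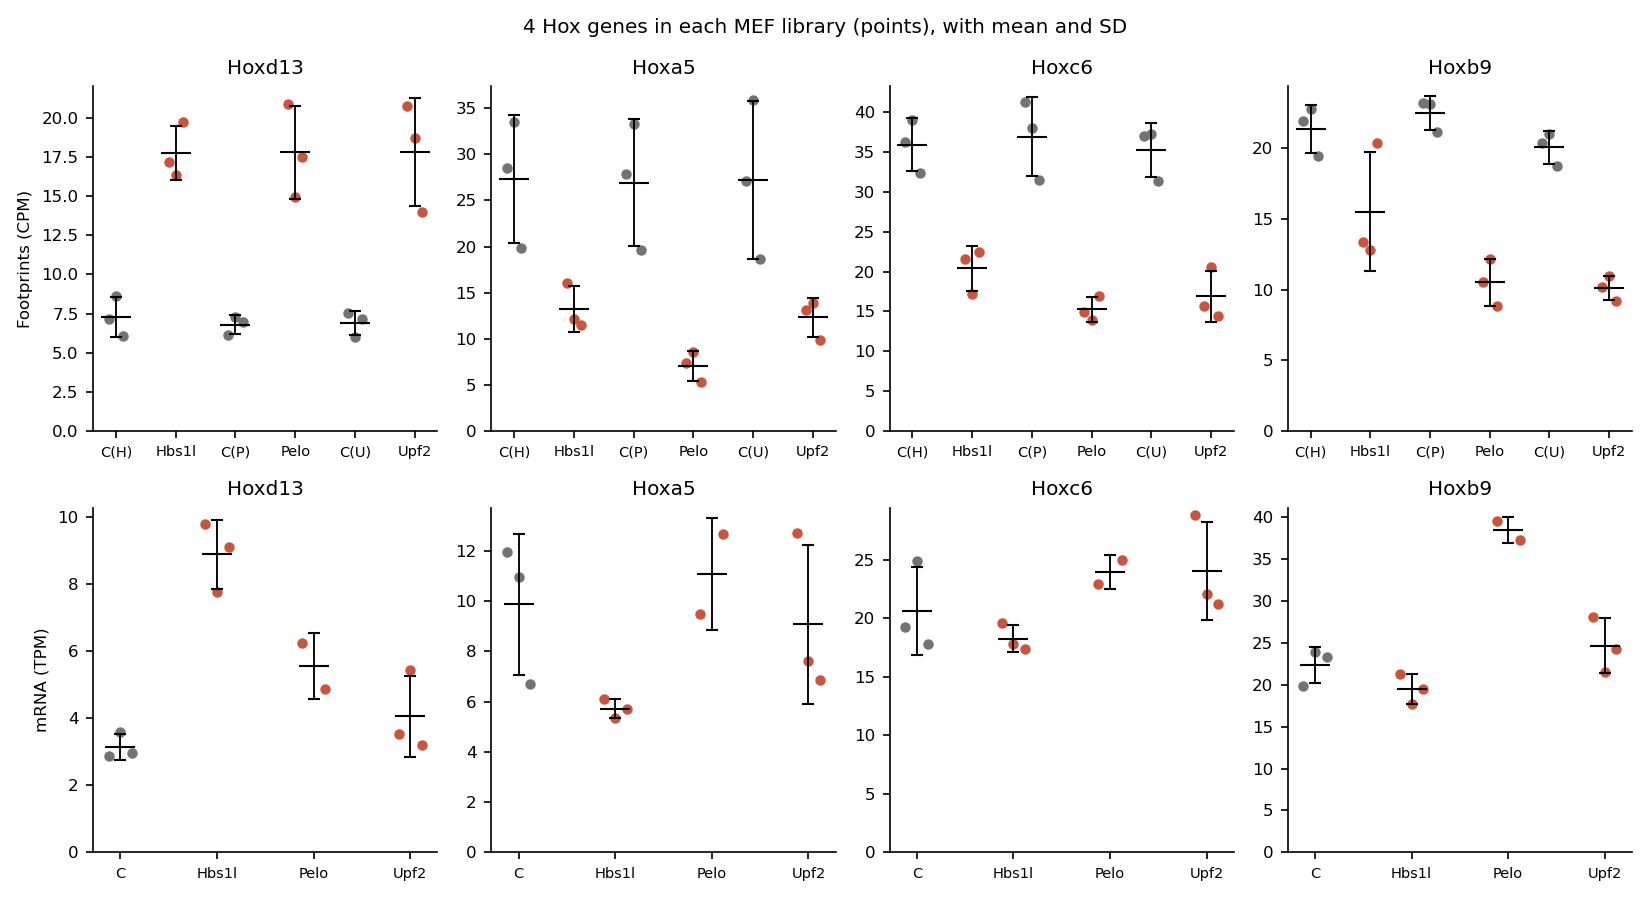
Footprints (CPM, top) and RNA (TPM, bottom) of Hoxd13, Hoxa5, Hoxc6 and Hoxb9 in each MEF library (points), with mean and SD; C(H), C(P) and C(U) are the control libraries of the 3 pools and Upf2 marks the libraries labelled so. Footprints of Hoxd13 are above and those of Hoxa5 and Hoxc6 below the controls in all 9 libraries of Hbs1l cKO, of Pelo cKO or labelled Upf2. Hoxb9 RNA of Pelo cKO is the highest, at 39.5 and 37.3 TPM.

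TE in Pelo cKO MEFs differed for 19 of 36 Hox genes, 2 up and 17 down. Of all genes 44.6% were called, 2947 higher and 2474 lower. The median of the Hox genes was -0.74 (all genes 0.04). All 8 Hoxb genes tested were lower. Hoxa5 fell most (-1.99 ± 0.41, adjusted p = 0.0016), then Hoxb8 (-1.81 ± 0.28, 0.00022) and Hoxb9 (-1.79 ± 0.16, 3.5e-06). Hoxd4 (-1.75 ± 0.38), Hoxb6 (-1.48 ± 0.28), Hoxb4 (-1.32 ± 0.26), Hoxb2 (-1.32 ± 0.23), Hoxc6 (-1.31 ± 0.21), Hoxa3 (-1.30 ± 0.35) and Hoxb5 (-1.19 ± 0.28) also fell. Hoxa13 (1.77 ± 0.42, 0.0044) and Hoxd13 (0.71 ± 0.22, 0.017) were higher, Hoxa13 with RNA of 0.594 and 0.418 TPM against 0.451 to 0.618 in controls. Footprints and RNA came from different dishes and different sequencing batches, so dish and batch cannot be told apart from assay. Of 15 fibroblast markers, 7 were higher and 2 lower in Pelo cKO TE, with Lum at 3.15 ± 0.63 and Pdgfra at 3.02 ± 0.47 on the log2 scale. Their part in the Hox values was not tested.

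In the MEF libraries labelled Upf2 the footprints of 20 of 36 Hox genes changed, 2 up and 18 down. Of all genes 43.4% were called, 2715 higher and 2564 lower. The median of the Hox genes was -0.61 (all genes 0.00). In groups 1 to 4, 4 of 10 fell, in groups 5 to 8, 9 of 11 fell, and in groups 9 to 13, 2 rose and 5 fell of 15. Hoxd13 had 7.52, 6.02 and 7.15 CPM in the controls of this pool and 20.8, 18.7 and 14 in the libraries labelled Upf2 (1.32 ± 0.16, adjusted p = 7.3e-05), and Hoxa13 2.44, 1.99 and 1.61 against 4.67, 5.42 and 3.57 (1.15 ± 0.25, 0.0034). These were the genes that rose. Hoxb5 fell from 10.7, 12.6 and 10.4 to 2.94, 5.60 and 5.77 (-1.24 ± 0.21, 0.00073), Hoxa5 from 27.2, 35.9 and 18.7 to 13.1, 13.9 and 9.89 (-1.19 ± 0.23, 0.0014), and Hoxc6 from 37.0, 37.3 and 31.4 to 15.7, 20.5 and 14.4 (-1.09 ± 0.13, 8.8e-05). In each of these 5 genes the groups stood apart. Hoxb4 had 19.7, 22.4 and 14.4 CPM against 7.26, 10.4 and 9.47 (-1.08 ± 0.19), Hoxb9 20.4, 21 and 18.8 against 10.2, 10.9 and 9.20 (-1.03 ± 0.12), Hoxc5 8.77, 9.55 and 6.16 against 2.25, 4.79 and 4.26 (-1.10 ± 0.26), Hoxc8 13.6, 14.3 and 9.32 against 6.74, 6.87 and 5.49 (-1.01 ± 0.20) and Hoxc10 16.5, 14.2 and 15.6 against 9.34, 10.3 and 8.10 (-0.77 ± 0.13). All of these were below the controls in each library. Hoxd10 had 4.60, 5.26 and 3.57 CPM in controls and 1.38, 1.36 and 1.65 in the libraries labelled Upf2 (-1.67 ± 0.27, 0.00051).

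RNA of the libraries labelled Upf2 changed for 4 of 37 Hox genes, 2 up and 2 down, beside 20% of all genes called, with a median of 0.12 (all genes -0.02). Hoxb3 RNA rose from 3.98, 4.81 and 3.77 TPM to 7.92, 6.74 and 7.58 (0.93 ± 0.15, adjusted p = 0.0022) and Hoxd4 RNA from 0.811, 0.584 and 0.911 to 1.42, 1.34 and 1.71 (0.93 ± 0.23, 0.019). Hoxc8 RNA fell from 6.88, 8.90 and 7.69 to 6.52, 5.03 and 4.61 (-0.52 ± 0.15, 0.037) and Hoxc10 RNA from 9.89, 12.1 and 11.8 to 9.52, 8.18 and 6.92 (-0.44 ± 0.13, 0.041), and both were lower in footprints too. The RNA calls of Hoxc8 and Hoxc10 were each lost under 7 of 12 alternatives, and that of Hoxb3 under 0. The antisense gene Hoxb3os shares 52.9% of the exon bases of Hoxb3. The count of 4 fell to 1 without library 3 labelled Upf2, without control replicate 2 and without control replicate 3. TE differed for 16 of 36 Hox genes, 2 up and 14 down. Of all genes 20.3% were called, 1021 higher and 1425 lower. The median of the Hox genes was -0.77 (all genes -0.03). Hoxa13 (1.62 ± 0.39, 0.0094) and Hoxd13 (0.92 ± 0.25, 0.018) were higher. Hoxb5 (-1.44 ± 0.30), Hoxb3 (-1.41 ± 0.25), Hoxb6 (-1.32 ± 0.28), Hoxc6 (-1.30 ± 0.23), Hoxb9 (-1.21 ± 0.18), Hoxb4 (-1.20 ± 0.26), Hoxb2 (-1.17 ± 0.24), Hoxc5 (-1.05 ± 0.30) and Hoxc4 (-1.0 ± 0.31) were among the lower, with the calls of Hoxc4 and Hoxc5 lost under 6 and 4 of 17 alternatives. Of the 15 fibroblast markers 8 were higher and 0 lower in this TE, and their part was not tested.

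**Figure D5:**
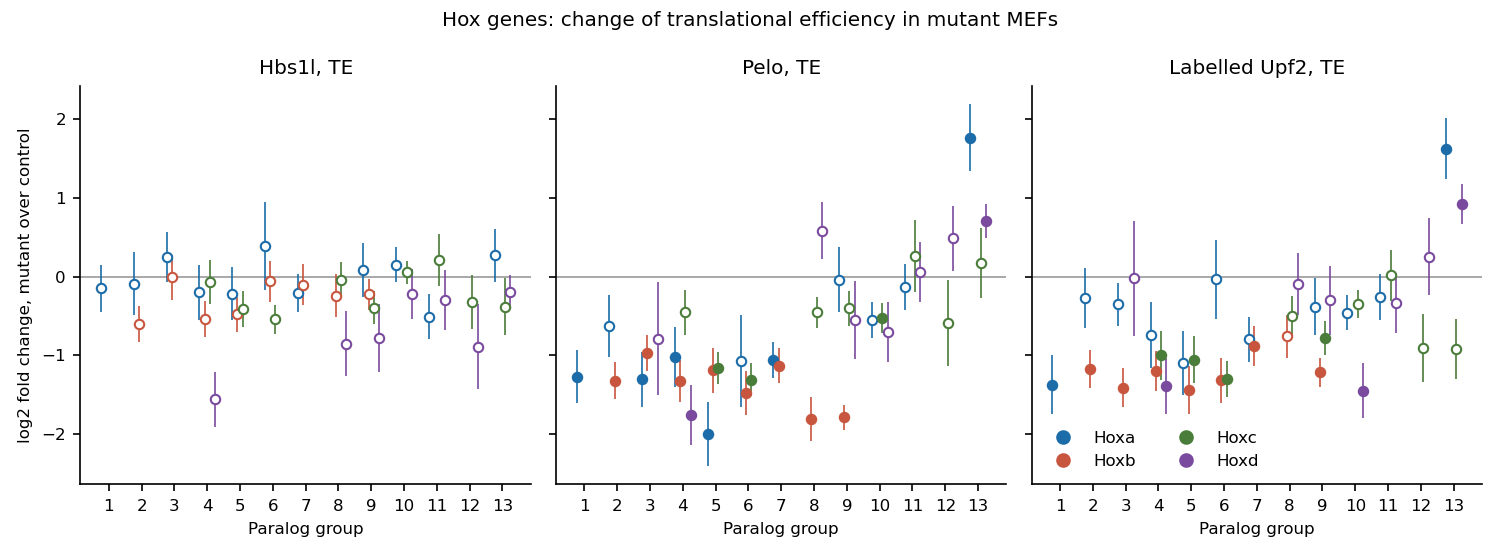
Change of translational efficiency (log2, over control, with standard error) of each Hox gene by paralog group. MEFs are Hbs1l cKO, Pelo cKO or labelled Upf2, and filled points have an adjusted p of at most 0.05. No point is filled for Hbs1l, and for the others most points of groups 1 to 9 lie below 0 while Hoxa13 and Hoxd13 lie above.

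Hox RNA of Pelo cKO and of the libraries labelled Upf2 was compared directly with that of Hbs1l cKO, with no control library. Pelo cKO against Hbs1l cKO differed for 16 of 37 Hox genes, 14 higher and 2 lower, beside 35.2% of all genes. Hoxb3 (1.08 ± 0.15, adjusted p = 0.0017), Hoxb9 (0.95 ± 0.10, 0.0006), Hoxb8 (0.93 ± 0.13, 0.0018) and Hoxa5 (0.90 ± 0.17, 0.0061) were higher in Pelo cKO, with Hoxb2 (0.78 ± 0.13), Hoxb4 (0.76 ± 0.13) and Hoxb5 (0.71 ± 0.18). Hoxd13 (-0.75 ± 0.15, 0.007) and Hoxa13 (-1.14 ± 0.25, 0.01) were lower. The count was 10 without Pelo cKO replicate 1 and 5 without replicate 2. The libraries labelled Upf2 against Hbs1l cKO differed for 14 of 37, 10 higher and 4 lower, beside 27.1% of all genes, with Hoxb3 (1.39 ± 0.15, 0.00031), Hoxb6 (0.88 ± 0.15), Hoxb5 (0.76 ± 0.17), Hoxb2 (0.75 ± 0.15), Hoxa5 (0.72 ± 0.20), Hoxb4 (0.49 ± 0.14) and Hoxc6 (0.46 ± 0.13) higher, and Hoxd13 (-1.08 ± 0.18, 0.0028) and Hoxa13 (-1.32 ± 0.26, 0.0053) lower. The calls of Hoxb4 and Hoxc6 were each lost under 6 of 10 alternatives, that of Hoxa5 under 3, and those of Hoxb3, Hoxb6 and Hoxb2 under 0. The count of 14 was 9 without library 1 labelled Upf2 and 8 without Hbs1l cKO replicate 2. Hoxd13 RNA of Hbs1l cKO stood at 7.77 to 9.81 TPM, above the 4.88 and 6.25 of Pelo cKO and the 3.20 to 5.44 of the libraries labelled Upf2.

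In control MEFs the ratio of footprints to RNA of Hox genes spread over much of the range of all genes. Among 10759 genes with a ratio of footprint density to TPM, the 28 Hox genes with enough counts had a median percentile of 58.7, with 9 below the median of all genes. Hoxb3 was the lowest, at percentile 17.5, and Hoxb4 the highest, at 87.6.

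Genes that act with or on Hox genes were counted in MEF footprints, where 34.1% of all genes were called in Hbs1l cKO, 44.1% in Pelo cKO and 43.4% in the libraries labelled Upf2. Of 9 TALE cofactors, the partners PBX, MEIS and PREP that bind DNA together with HOX proteins, footprints of 1 rose and 2 fell in Hbs1l cKO MEFs, 1 rose and 3 fell in Pelo cKO, and 2 rose and 1 fell in the libraries labelled Upf2. Meis2 fell in Hbs1l cKO and Pelo cKO (-0.47 ± 0.10 and -0.97 ± 0.11). Of regulators upstream of Hox genes and of retinoic acid, 14 tested, 4 rose and 2 fell in Hbs1l cKO, 2 rose and 3 fell in Pelo cKO and 5 rose and 1 fell in the libraries labelled Upf2. Crabp1, a retinoic acid binding protein, rose by 1.11 ± 0.14 and 2.01 ± 0.16 in Hbs1l cKO and Pelo cKO, and Aldh1a2, which makes retinoic acid, fell in Hbs1l cKO (-0.81 ± 0.18). Of 30 Polycomb genes, which keep Hox genes silent, 5, 4 and 4 rose and 3, 5 and 1 fell in Hbs1l cKO, Pelo cKO and the libraries labelled Upf2, and Phf19 was the highest in each (0.91 ± 0.21, 1.07 ± 0.20 and 1.36 ± 0.17). Of 16 trithorax-group and CTCF genes, which keep Hox genes active, 9, 6 and 7 rose and 0, 0 and 2 fell. The TALE, upstream regulator and Polycomb counts came to shares near or below those of all genes, and nothing is read from them. The trithorax-group count in Pelo cKO was also below the share of all genes, and nothing is read from it.

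Genes that sit beside the Hox clusters and genes of position were counted beside the same 34.1, 44.1 and 43.4% of all genes called. Of 18 cluster neighbours tested in footprints, 2, 1 and 3 rose and 2, 4 and 3 fell, a share below that of all genes in each comparison from which nothing is read, with Skap2, next to the Hoxa cluster, at -0.51 ± 0.12 in Hbs1l cKO and -0.54 ± 0.10 in Pelo cKO. In RNA, 8 noncoding RNAs of the clusters could be tested, and 0, 0 and 1 of them were called, beside 23.1, 32.1 and 20% of all genes. Their median log2 fold changes were -0.55 in Hbs1l cKO, -0.17 in Pelo cKO and 0.03 in the libraries labelled Upf2, where Gm53 rose (0.73 ± 0.16, adjusted p = 0.0099). Of 23 limb and trunk genes, 6, 9 and 5 rose and 3, 4 and 7 fell in footprints of Hbs1l cKO, Pelo cKO and the libraries labelled Upf2. Msx2, of the limb margin, fell in each (-1.95 ± 0.24, -2.39 ± 0.29 and -1.79 ± 0.26), and Tbx4, a hindlimb gene, rose in Pelo cKO (1.61 ± 0.16). Of head and pharyngeal arch genes, 1 rose and 3 fell of 14 in Hbs1l cKO, with Dlx5 at -1.20 ± 0.23 and Foxd1 at -1.12 ± 0.22. In Pelo cKO 3 rose and 5 fell of 15, and in the libraries labelled Upf2 1 rose and 3 fell of 17. The counts in Hbs1l cKO and in the libraries labelled Upf2 were below the share of all genes, and nothing is read from them. Fibroblast markers summed to 47116 to 49204 CPM in the controls of the Hbs1l pool and to 50418 to 54028 in Hbs1l cKO, and all 15 were detected in every MEF library. Of them, 11 rose and 1 fell in Hbs1l cKO footprints, 11 and 1 in Pelo cKO and 11 and 2 in the libraries labelled Upf2, with Pdgfra up by 2.23 ± 0.20 in Hbs1l cKO. The part of these position and fibroblast genes in the Hox values was not tested.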

How the data were processed

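Ribosome footprints were measured in 30 libraries and RNA in 11. Per the labels and the study's methods, the authors trimmed reads with fastx_clipper, removed unwanted RNA with Bowtie2 2.2.3, aligned footprints with HISAT2 2.1.0 (mm10) and counted them with featureCounts over the coding sequence of Gencode M24. The deposited footprint values are raw counts per gene. The authors quantified RNA with kallisto 0.42.4, and the deposited values are estimated counts and TPM per transcript. They left out 1 Pelo cKO RNA sample as an outlier. No deposited sample column was left unmapped (0 unused).

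From these, estimated counts and TPM were summed per gene and estimated counts rounded. Footprint levels are CPM of a library's counts. Tests used edgeR 4.0.16 (filterByExpr, TMM, quasi-likelihood F test) in R 4.3.3 with Benjamini-Hochberg adjustment over all genes tested and a threshold of 0.05. Histone genes were removed from fits with footprints. Fold changes are given as log2 ± SE, levels as mean ± SD. TE was fitted as an assay-by-genotype term in 1 model, with TMM and filter within each assay. Hbs1l cKO, Pelo cKO and the libraries labelled Upf2 were each compared with the controls of their own pool. The fits were tested on simulated data with 200 changed genes. Depth per group is in the report, and a gene with few counts has wide counting error. Alternatives were DESeq2 1.42.0, RLE factors, no low-count filter, a replicate block, limma 3.58.1 on log2(TPM + 1), all RNA genotypes in 1 fit, summed control pools, histone genes kept, and leaving out each library. Sequence tables used Gencode M21 and RefSeq GRCm38.p6, while counting used M24, and protein sequences were not used here.

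The members and the 15 gene lists were chosen with earlier results of these data known. Genes given per library by rule were, in each comparison, up to 8 called members with the largest log2 fold change at a mean of at least 5 CPM. The 5 densest in each control tissue were added, as were members called in both footprints and RNA of a mutant or of the libraries labelled Upf2. Other genes given per library fall outside these rules, among them Hoxc11 and Hoxd10, and Hoxa13 in Pelo cKO and in the libraries labelled Upf2. These count as chosen after their values were seen. From other lists up to 3 called genes were named. Samples were grouped by their labels. Values of a few genes of these lists are not reported here.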

Additional observations from a re-analysis of the deposited data

Results flagged for a closer look

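In cerebellum no Hox gene passed the low-count filter of the main test between genotypes, and a fit without that filter was among the alternatives. Hox footprints there summed to 3.54 CPM in Atoh-Cre;Hbs1l cKO replicate 1 and to 9.65 CPM in replicate 3. Both stood above the 0.783 CPM of the highest control cerebellum. The third cKO cerebellum, at 0.733 CPM, did not share this. Beside these values, 14 brainstem and spinal neuron markers summed to 140 and 251 CPM in the same libraries.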

How the results depend on the processing

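For 95 results of single Hox genes recomputed under the alternatives, none changed direction: of 1122 values, 1001 stayed on their side of the threshold and 121 lost the call. Other Hox genes named in the text were not followed this way. The counts of Hox genes called moved by over 1.5 times, apart from leaving out a library, only in RNA, where limma on log2(TPM + 1) gave 2 for Hbs1l cKO (11 in edgeR) and 1 for the libraries labelled Upf2 (4 in edgeR). Same-numbered samples did not correlate above 0.1 in every pair of any comparison (-0.327 to 0.344), so numbers were not used to pair samples between genotypes. Footprint and RNA libraries of the same number were not checked in this way, and the TE fits treat them as separate samples. With the replicate block the count was 6 for Hbs1l cKO RNA and 3 for Pelo cKO RNA (6 without it). No block was fitted between tissues, whose numbers are unrelated. The cause of these shifts was not tested.

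Leaving out each library in turn gave 0 to 8 called genes in embryos, 0 in cerebella, 9 to 19 in Hbs1l cKO footprints, 18 to 23 in Pelo cKO footprints and 17 to 20 in footprints of the libraries labelled Upf2. In RNA it gave 4 to 11, 2 to 9 and 1 to 4, and in TE 0, 16 to 20 and 11 to 20. The difference of the Hbs1l effect between embryo and MEF gave 0 to 3, Pelo cKO minus Hbs1l cKO RNA 5 to 19, the libraries labelled Upf2 minus Hbs1l cKO RNA 8 to 15, control MEF minus embryo 25 to 32, and embryo minus cerebellum 27 to 28. Where Pelo cKO RNA kept 1 mutant library, that library is assumed to vary like the other groups. Embryo libraries were the smallest, at 2634480 to 7298812 counts, and the count of 0 rose to 8 without the deepest of them. Between cKO and control cerebella, whose libraries were deeper than those of embryos, no Hox gene passed the filter for a test.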
